A study of Mus musculus with 32 samples.

Results

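Rpl12, Rpl15, Rpl23 and Rpl29 encode proteins of the large (60S) subunit of the cytosolic ribosome. In the study's list of mRNAs with a changed polysomal/total ratio each of these 4 genes is represented by 2 cDNA clones. The sequences of the clones were not available here, so whether the 2 clones of a gene overlap is not known. The 8 clones were chosen by that ratio: a clone is on the list because its polysomal/total ratio differed between 3T3-tTA-eIF4E and 3T3-tTA cells, and its row among the 15247 rows of the deposited values was found by this difference. All 8 clones had exactly 1 such row. The difference in polysomal/total ratio between the cell lines is therefore given below as a description without a test. Total RNA was not used in the choice.

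Ribosomal protein mRNAs are abundant and belong to the TOP mRNAs, which start with a C at the cap and carry an uninterrupted stretch of pyrimidines behind it. Their movement between free mRNPs and polysomes changes with growth conditions. The translation initiation factor eIF4E binds the mRNA 5′ cap and brings the mRNA to the ribosome as part of eIF4F. mRNAs that are translated by many ribosomes at the same time sediment in the heavy polysome fractions of a sucrose gradient, and the ratio of heavy polysomal to total RNA is a measure of translational activity that is corrected for mRNA abundance.

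3T3-tTA cells are mouse NIH 3T3 fibroblasts that carry the tetracycline-controlled transactivator (TET OFF). 3T3-tTA-eIF4E cells are derived from them and carry in addition eIF4E under tetracycline control. In both lines induction means removal of tetracycline for 5 hr, so the parental line received the same change of medium without the eIF4E transgene. Each line had 4 arrays that compared total RNA between induced and uninduced cells, and 4 further arrays that compared heavy polysomal RNA of induced cells with total RNA. Of the 4 arrays in a condition, 2 had the RNA of interest in Cy3 and 2 in Cy5, and they came from 2 RNA extractions, each hybridised in both dye orientations. The sources do not name the extraction of an array. In the sample labels the reference of the 3T3-tTA-eIF4E polysomal arrays is uninduced total RNA, and in the study's methods induced total RNA. The methods were followed. Whether 3T3-tTA-eIF4E is a single clone of cells is not given in the sources used here.

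In the following, arrays with total RNA are called T and arrays with polysomal RNA P, followed by the number of the first of their 2 deposited samples, which are the duplicate spots of a clone. T1, T3, T5 and T7 are the total RNA arrays of 3T3-tTA, and T9, T11, T13 and T15 those of 3T3-tTA-eIF4E. P1, P3, P5 and P7 are the polysomal arrays of 3T3-tTA-eIF4E, and P9, P11, P13 and P15 those of 3T3-tTA. Values are log2 ratios turned so that a positive value means more induced than uninduced RNA, or more polysomal than total RNA. A value of 1 is a 2-fold ratio. The 3 clones of Eif4e on the array, the induced gene, had a mean log2 ratio of 2.75 to 3.79 in total RNA of 3T3-tTA-eIF4E and of -0.02 to 0.06 in 3T3-tTA, with no overlap of the arrays. Their rows were found by the difference given in the study's list for total RNA, so that these values are no independent check of the labels. Correlation between the duplicate spots over all rows was 0.77 to 0.90 on the total RNA arrays and 0.56 to 0.92 on the polysomal arrays, lowest on P13. Arrays of one line with opposite dyes had a median correlation of -0.18 over all rows (16 pairs, lowest -0.61) after turning, so that ratios tended to change sign with the dye. Col1a2, a fibroblast collagen gene, had spots 3.2 to 36.5 times as bright as the local background on the 4 polysomal arrays with scanner values. The spots of the markers Bgn and Dcn were not identified with certainty and give no level here.

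Sequence at or near the annotated transcription start is shown for the genes because a pyrimidine stretch at the start defines TOP mRNAs. Of the 4 genes, 3 had an entry in the RefSeq promoter table (GRCm38.p6). Rpl29 had none. From 10 bases before to 30 bases after the start, the longest run of C and T is printed in capitals within 30 bases of the strand of the gene.
Rpl12: gagcaggatccgTCTTTTCggctttcggct
Rpl15: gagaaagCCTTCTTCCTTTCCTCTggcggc
Rpl23: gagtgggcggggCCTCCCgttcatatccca
The stretch of Rpl12 lies at chr2:32961701-32961730 on the plus strand, with a run of 7 pyrimidines that begins at position 2 (position 1 is the annotated start). That of Rpl15 lies at chr14:18270968-18270997 on the minus strand and holds a run of 17 pyrimidines that begins at position -4 and covers the start. That of Rpl23 lies at chr11:97782404-97782433 on the minus strand, where a run of 6 pyrimidines begins at position 19. It covers positions 7 to 36 and does not hold the start, while those of Rpl12 and Rpl15 cover positions -11 to 19. A run of C and T at least as long as in Rpl12 was found in 22.6% of the 32851 windows of the same size in the table, as long as in Rpl15 in 0.615%, and as long as in Rpl23 in 35.2%. Rpl15 thus had the longest stretch of the 3 genes. The annotated first base was C in Rpl15 and G in Rpl12 and Rpl23, and annotated starts can differ from those used in these cells.

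All 8 clones had a higher polysomal/total ratio in the eIF4E line than in its parent. The clones were chosen on this contrast, for a difference in either direction. The differences in log2 ratio were 0.87 and 0.53 for Rpl12, 1.18 and 0.66 for Rpl15, 0.49 and 0.42 for Rpl23, and 0.54 and 0.35 for Rpl29. These are 1.27-fold to 1.82-fold differences in 7 clones, besides 2.27-fold in Rpl15 H3087E03. On the arrays with scanner values the Cy3 signal of this clone was close to the background. The smallest, 1.27-fold for Rpl29 H3016G06, lies just inside the list, which required 1.3-fold by the study's own measure. Rows outside the list carry no reliable names, and the clones of these genes just outside it cannot be given. What the list does not show is how far the arrays of a condition spread around these means and how far the 2 clones of a gene agree.

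**Figure D1:**
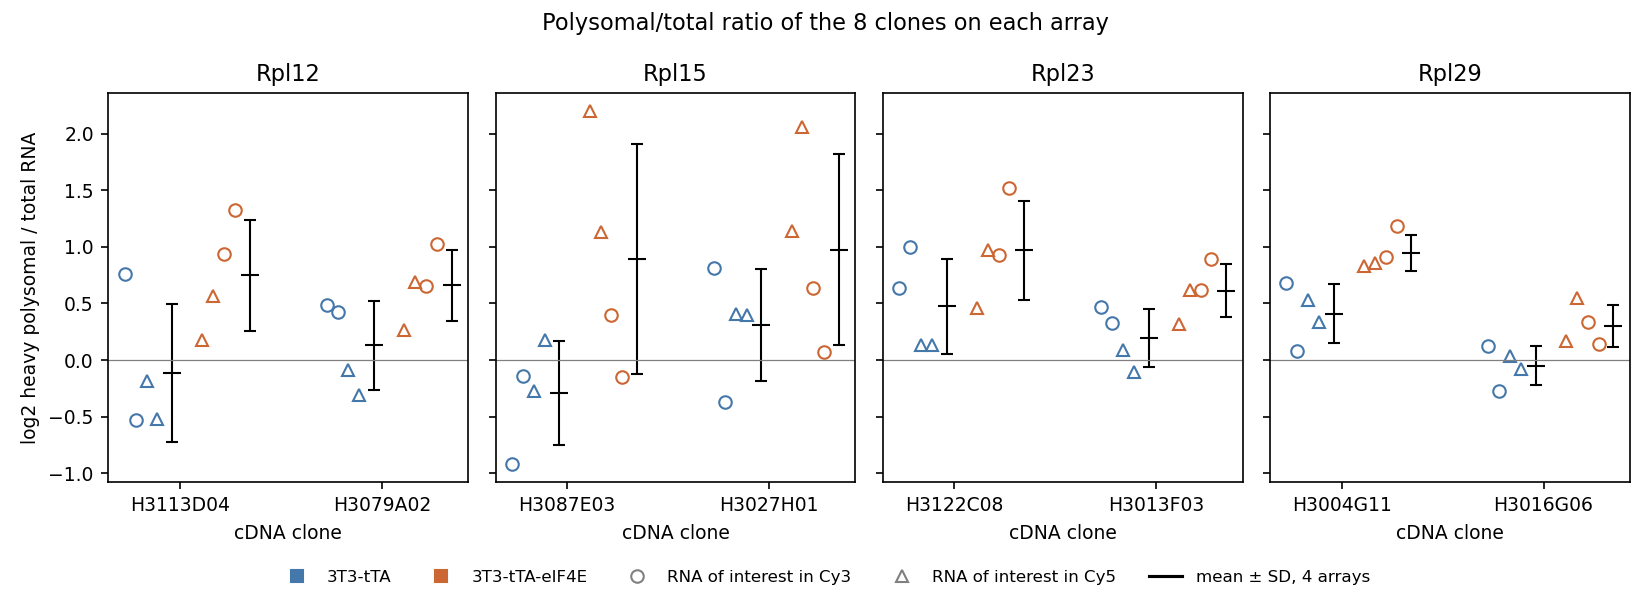
The plot of polysomal/total ratios shows the log2 ratio of heavy polysomal to total RNA (vertical axis) for the 2 clones of each gene on each array, with 3T3-tTA in blue and 3T3-tTA-eIF4E in orange, circles for arrays with polysomal RNA in Cy3, triangles for Cy5, and black bars for the mean ± SD of 4 arrays. The values of both lines are apart for both clones of Rpl29 and overlap for the other 6 clones.

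Rpl29, a small basic protein of the 60S subunit, had in both clones the smallest spread in 3T3-tTA-eIF4E. Clone H3004G11 had log2 ratios of 0.83, 0.86, 0.91 and 1.18 on P1, P3, P5 and P7 in 3T3-tTA-eIF4E, and of 0.68, 0.08, 0.53 and 0.34 on P9, P11, P13 and P15 in 3T3-tTA. Clone H3016G06 had 0.17, 0.55, 0.34 and 0.15 in 3T3-tTA-eIF4E, and 0.12, -0.27, 0.04 and -0.08 in 3T3-tTA. For both clones every array of 3T3-tTA-eIF4E was above every array of 3T3-tTA, although for H3016G06 the lowest value of one group and the highest of the other were close together. Means in 3T3-tTA-eIF4E and 3T3-tTA were 0.95 ± 0.16 (SD, n = 4 arrays) and 0.41 ± 0.26 for H3004G11, against 0.30 ± 0.19 and -0.05 ± 0.17 for H3016G06. Such a separation was seen for 2 of the 8 clones, and for 0.728% of all rows. The clones were chosen on this same contrast.

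Rpl23 is a protein of the subunit interface that also binds Mdm2. Clone H3122C08 had log2 ratios of 0.46, 0.97, 0.93 and 1.52 on P1, P3, P5 and P7, and of 0.63, 1.00, 0.13 and 0.13 on P9, P11, P13 and P15. Clone H3013F03 had 0.32, 0.62, 0.62 and 0.89 in 3T3-tTA-eIF4E and 0.47, 0.33, 0.09 and -0.10 in 3T3-tTA. In both clones P1 was the lowest array of 3T3-tTA-eIF4E, below the higher arrays of 3T3-tTA, P9 and P11. These 2 arrays had polysomal RNA in Cy3. Means in 3T3-tTA-eIF4E and 3T3-tTA were 0.97 ± 0.43 and 0.47 ± 0.42 for H3122C08, and 0.61 ± 0.23 and 0.20 ± 0.25 for H3013F03 (SD, n = 4 arrays).

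Rpl12 lies at the base of the ribosomal stalk, where elongation factors bind. Clone H3113D04 had log2 ratios of 0.18, 0.56, 0.93 and 1.32 on P1, P3, P5 and P7, and of 0.76, -0.53, -0.18 and -0.52 on P9, P11, P13 and P15. Clone H3079A02 had 0.27, 0.69, 0.66 and 1.02 in 3T3-tTA-eIF4E, and 0.49, 0.43, -0.09 and -0.31 in 3T3-tTA. The clones differed most on P11, where one was below 0 and the other above it, a gap of 0.95. In both, P1 lay within the range of the 3T3-tTA arrays. Means in 3T3-tTA-eIF4E and 3T3-tTA were 0.75 ± 0.49 and -0.12 ± 0.61 for H3113D04, and 0.66 ± 0.31 and 0.13 ± 0.39 for H3079A02 (SD, n = 4 arrays).

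Rpl15, a core protein of the 60S subunit, had in both clones the widest spread in 3T3-tTA-eIF4E. In H3087E03, where the difference between the lines was 1.18, the Cy3 signal was 1.01 to 1.46 times the background on the scanned arrays. These are P3, P7, P11 and P15. The brightness of its spots on P1, P5, P9 and P13 is not known. Clone H3087E03 had log2 ratios of 2.20, 1.14, 0.40 and -0.15 on P1, P3, P5 and P7, and of -0.92, -0.14, -0.27 and 0.18 on P9, P11, P13 and P15. Clone H3027H01 had 1.14, 2.06, 0.63 and 0.07 in 3T3-tTA-eIF4E and 0.81, -0.37, 0.41 and 0.40 in 3T3-tTA. In both clones the high values of 3T3-tTA-eIF4E were those of P1 and P3, with polysomal RNA in Cy5, and P7 lay within the range of 3T3-tTA. Means in 3T3-tTA-eIF4E and 3T3-tTA were 0.90 ± 1.01 and -0.29 ± 0.46 for H3087E03, and 0.98 ± 0.84 and 0.31 ± 0.50 for H3027H01 (SD, n = 4 arrays). From Cy5 arrays alone the differences between the lines were 1.71 and 1.20, and from Cy3 arrays alone 0.65 and 0.13. That of H3027H01 was 0.37 without P3 and 1.01 without P9.

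If the reference on the polysomal arrays of 3T3-tTA-eIF4E was uninduced total RNA, the change in total RNA of this line has to be subtracted. The differences then remained above 0 for all 8 clones, which were chosen for this contrast on the same polysomal arrays. That of Rpl23 H3122C08 fell from 0.49 to 0.17, that of Rpl23 H3013F03 from 0.42 to 0.22, and that of Rpl12 H3079A02 from 0.53 to 0.35. The other 5 clones had 0.34 to 1.15.

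Scanner values of P3, P7, P11 and P15 showed how bright the spots were. Rpl23 H3013F03 was the brightest clone, 40.7 to 134.6 times the local background over both dyes. Rpl15 H3087E03 was the dimmest, with a Cy3 signal 1.01 to 1.46 times and a Cy5 signal 1.58 to 2.72 times the background. Its partner H3027H01, whose spot was matched less closely than those of the other 7 clones (distance 0.21, outside the limit of 0.2), had at that spot 2.88 to 4.32 times the background in Cy3 and 8.48 to 14.8 times in Cy5. The other 6 clones ranged from 5.89 to 134.6 times the background in Cy3, and in Cy5 were at least 11.7 times the background with 2 exceptions. These were on P15, where Rpl12 H3079A02 had 2.99 and Rpl29 H3004G11 1.29 times the background. The spots were not dim there, with Cy5 foregrounds of 9992.5 and 8976, but the local backgrounds were 3339.5 and 6943. On P3, P7 and P11 the Cy5 background of these 2 clones was 178 to 807. The part of this background in their P15 ratios was not tested. In the deposited ratios both clones of Rpl15 had the largest gaps between duplicate spots, with a median of 0.22 for H3087E03 and 0.27 for H3027H01 over 16 arrays, against 0.05 to 0.10 for the other 6. The largest gap was that of H3087E03 on P9, with -0.02 and -1.82 on the 2 spots. The deposited ratios were made without background subtraction. The part of low signal in the values of Rpl15 was not tested.

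**Figure D2:**
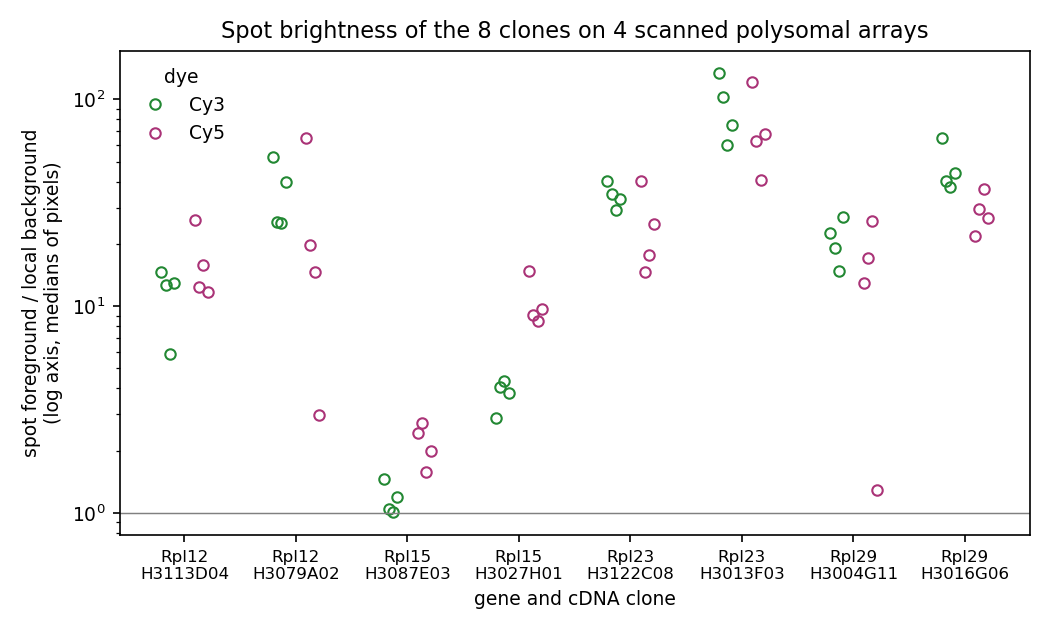
The plot of spot brightness shows, for each clone (horizontal axis), the foreground over the local background in Cy3 (green) and Cy5 (purple) on the 4 scanned polysomal arrays, on a log axis with a line at 1. Rpl15 H3087E03 lies closest to the line, with Cy3 values of 1.01 to 1.46, and Rpl23 H3013F03 lies highest. The spot of Rpl15 H3027H01 was matched less closely.

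Polysomal/total ratios were also averaged over both lines. Since each array was normalized by a lowess curve over spot intensity, a mean above 0 only places a clone above the typical clone of similar brightness. This mean uses the same arrays as the choice of the clones but is orthogonal to the difference between the lines. Since small spread between arrays favoured a place on the list, its p-values are not fully independent of the choice. All 8 clones had a mean above 0, from 0.13 ± 0.12 (SE of the fit) for Rpl29 H3016G06 to 0.72 ± 0.14 for Rpl23 H3122C08, with a median of 0.40 beside 0.04 over all rows. Of all rows 56.6% had a mean above 0. From Cy3 arrays alone Rpl15 H3087E03 was below 0 (-0.20). The means of Rpl12 H3113D04 and H3079A02 were 0.62 and 0.65 from Cy3 arrays and 0.011 and 0.14 from Cy5 arrays. Those of Rpl23 H3122C08 and H3013F03 were 1.02 and 0.58 from Cy3 arrays and 0.42 and 0.23 from Cy5 arrays. Rpl15 went the other way, with 0.81 for H3087E03 and 1.00 for H3027H01 from Cy5 arrays, and 0.29 for the latter from Cy3 arrays. At an adjusted p under 0.1 and a 1.3-fold ratio by limma none of the 8 was called, beside 2.13% of all rows (171 higher and 153 lower). The smallest adjusted p-values by limma were 0.102 for Rpl29 H3004G11 (0.68 ± 0.12) and 0.120 for Rpl23 H3122C08. With the 4 arrays of a condition as replicates, 5 clones were called (both clones of Rpl23, Rpl12 H3079A02, Rpl15 H3027H01 and Rpl29 H3004G11), and the count over all rows rose from 324 to 2092. Arrays of one extraction are then counted as independent. After scaling of the arrays Rpl23 H3122C08 (adjusted p = 0.039 by limma) and Rpl29 H3004G11 (0.063) were called, among 866 rows. Cy3 arrays alone called both of these, Rpl23 H3013F03 and Rpl12 H3079A02, with adjusted p of 0.033 to 0.060 by limma, among 2910 rows. Cy5 arrays alone called none of the 8 (adjusted p by limma of 0.165 to 0.973), among 60 rows. Rpl23 H3122C08 was also called without P13 (0.098, among 521 rows) or P15 (0.074, among 715 rows), and Rpl29 H3004G11 without P1 (0.094, among 354 rows). The mean of Rpl15 H3087E03, 0.30 on all arrays, was 0.13 without P1 and 0.16 without P11.

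In total RNA none of the 8 clones passed the test of the difference between the lines. By limma on extraction means, 0% of the 15247 rows passed an adjusted p under 0.1 with a 1.3-fold difference, although 68 rows had an unadjusted p under 0.05, none of them a member. This fit did not call any of the 3 Eif4e clones either (adjusted p by limma of at least 0.438), although they differed between the lines by 2.69 to 3.75 without overlap, so that a missing call by limma carries no information on the members. SAM on spot pairs, the kind of test the study used, called 24 to 56 rows depending on the pairing, among them 0 of the 8 clones. Duplicate spots and arrays of one extraction are then counted as independent. The study also paired by experimental set, which was not known here. Differences in log2 induced/uninduced ratio, 3T3-tTA-eIF4E minus 3T3-tTA, were 0.23 ± 0.30 (SE) and 0.28 ± 0.27 for Rpl12, -0.19 ± 0.11 and -0.01 ± 0.24 for Rpl15, 0.20 ± 0.21 and 0.05 ± 0.16 for Rpl23, and 0.17 ± 0.34 and -0.01 ± 0.21 for Rpl29. For 5 of the 8 clones the difference was above 0, beside 46.8% of all rows, and the median was 0.11 beside -0.01 over all rows. In RNA of a whole culture, fewer cells with a transcript and less of it per cell cannot be told apart.

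**Figure D3:**
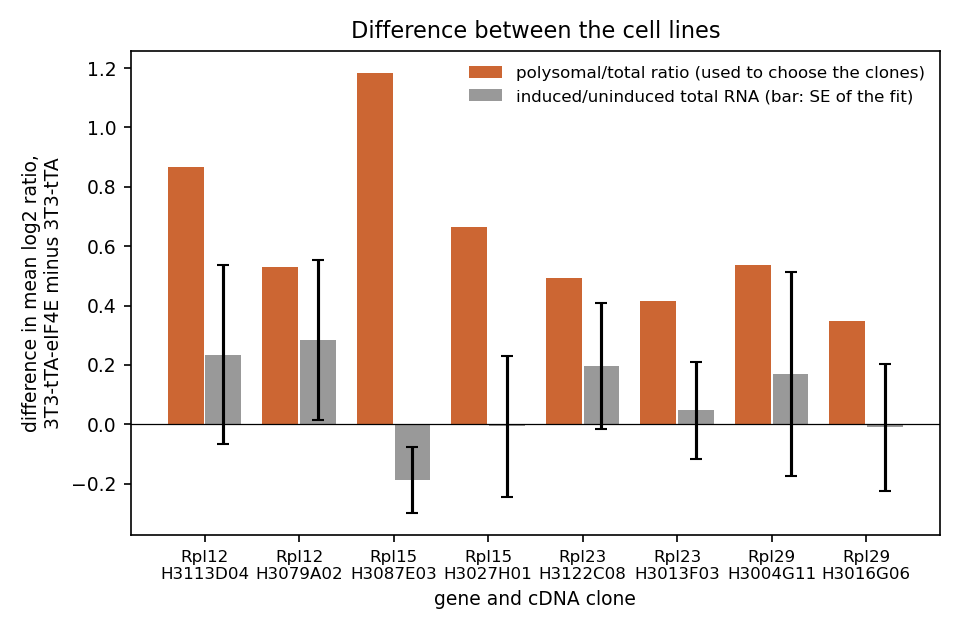
The plot of differences between the lines shows the difference in mean log2 ratio, 3T3-tTA-eIF4E minus 3T3-tTA, for the 8 clones, with the polysomal/total ratio in orange, which was used to choose the clones, and the induced/uninduced ratio of total RNA in grey with the SE of the fit. Polysomal/total differences are 0.35 to 1.18 and total RNA differences are -0.19 to 0.28. The value of 1.18 is that of Rpl15 H3087E03, whose Cy3 signal was close to the background on the scanned arrays.

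Within a line, removal of tetracycline gave calls for 0.0131% of all rows in 3T3-tTA-eIF4E and 0% in 3T3-tTA, where 4.16% of the rows had an unadjusted p under 0.05, with 1 of the 8 clones among them (Rpl15 H3087E03, 0.22). No clone of the 4 genes was called by limma in either line, with adjusted p-values of at least 0.963 and 0.897. In no clone were the total RNA arrays of both lines apart, against 0.918% of all rows.

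On single arrays the total RNA ratios spread widely in some clones. Rpl12 H3113D04 had -0.50, 0.98, 1.53 and -1.51 on T9, T11, T13 and T15 of 3T3-tTA-eIF4E, and 0.47, -0.25, -0.61 and -0.05 on T1, T3, T5 and T7 of 3T3-tTA. Clone H3079A02 had -0.46, 1.09, 1.41 and -1.33, and 0.43, -0.12, -0.64 and -0.10, respectively. In 3T3-tTA-eIF4E both clones were above 0 on the 2 arrays with induced RNA in Cy3 (T11 and T13) and below 0 on those with induced RNA in Cy5 (T9 and T15). On all 8 total RNA arrays the Cy3 mean exceeded the Cy5 mean by 1.45 for H3113D04 and 1.35 for H3079A02. The difference between the lines was 1.05 and 1.09 from Cy3 arrays alone and -0.58 and -0.52 from Cy5 arrays alone, so that its direction turned with the dye in both clones of this gene.

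The direction turned with the dye in the other clones too, except in Rpl15 H3087E03. Rpl29 H3004G11 had 0.02, -0.02, 1.17 and -0.84 on T9, T11, T13 and T15, and H3016G06 had 0.03, -0.12, 0.54 and -0.42. In 3T3-tTA the 2 clones of Rpl29 stayed between -0.19 and 0.19. Rpl23 H3122C08 had -0.08, 0.12, 1.12 and 0.15 in 3T3-tTA-eIF4E, and H3013F03 had -0.09, 0.25, 0.88 and -0.25, with all arrays of 3T3-tTA between 0.01 and 0.27 for both. T13 gave the highest value of 3T3-tTA-eIF4E in all clones but Rpl15 H3087E03. Over all rows this array had an SD of 0.55, against 0.26 to 0.37 on the other total RNA arrays. Without T13 the differences between the lines turned below 0 for both clones of Rpl12 (-0.10 and -0.01), both clones of Rpl23 (-0.08 and -0.15) and Rpl29 H3004G11 (-0.18). Without T7 it turned below 0 for both clones of Rpl12 (-0.10 and -0.05), Rpl23 H3013F03 (-0.03) and Rpl29 H3004G11 (-0.02), and without T1 for Rpl23 H3013F03 (-0.05). The values near 0 of Rpl15 H3027H01 and Rpl29 H3016G06 turned above 0 without T15 (0.15 for both), and also without T3 and without T11, besides T1 for the former and T5 for the latter. No direction of the total RNA difference is therefore given for the 4 genes. Rpl15 H3087E03 had 0.09 to 0.29 in 3T3-tTA and -0.06 to 0.22 in 3T3-tTA-eIF4E, and H3027H01 -0.27 to 0.21 and -0.59 to 0.43, respectively.

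**Figure D4:**
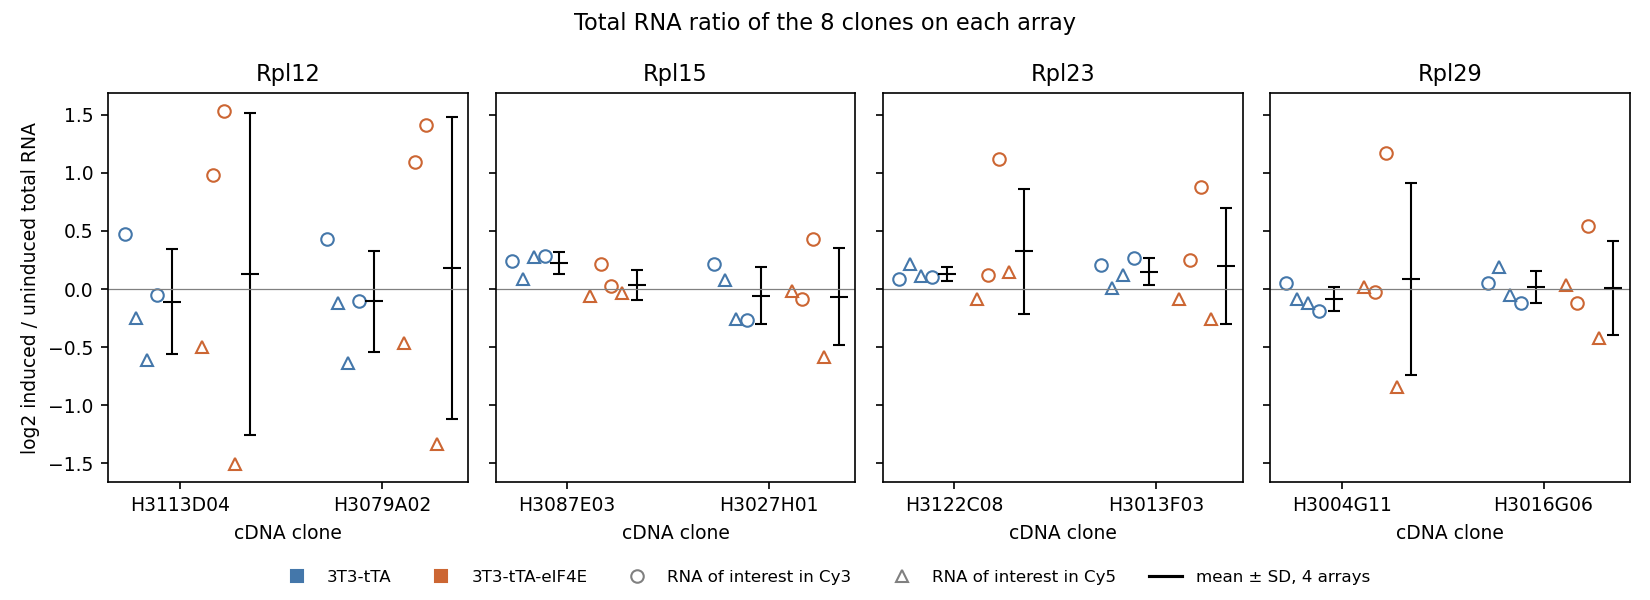
The plot of total RNA ratios shows the log2 ratio of induced to uninduced total RNA (vertical axis) for the 8 clones on each array, with 3T3-tTA in blue, 3T3-tTA-eIF4E in orange, circles for induced RNA in Cy3, triangles for Cy5, and black bars for the mean ± SD of 4 arrays. The arrays of 3T3-tTA-eIF4E spread from -1.51 to 1.53 in Rpl12, with circles above and triangles below 0, and much less in Rpl15 H3087E03.

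The 2 clones of a gene were then compared on each array. The clones of Rpl12 gave nearly the same total RNA ratio, with a largest gap of 0.17 on 8 arrays and a correlation of 0.996 across them. Correlations in total RNA were 0.94 for Rpl29, 0.83 for Rpl23 and -0.03 for Rpl15 (8 arrays each, 2 conditions and both dyes together). In polysomal/total ratio, where the difference used to choose the clones enters the correlation, they were 0.83 for Rpl12, 0.56 for Rpl15, 0.91 for Rpl23 and 0.76 for Rpl29. After removal of condition means and dye terms, the correlation across 16 arrays was 0.84 for Rpl12, 0.82 for Rpl23, 0.86 for Rpl29 and -0.15 for Rpl15. By this measure the partner clone was ranked 23 and 130 among 15246 rows for the 2 clones of Rpl12, 33 and 37 for Rpl29, 113 and 167 for Rpl23, and 9844 and 9864 for Rpl15. With these terms removed, the clones of 3 genes thus followed each other from array to array and those of Rpl15 did not. The dye term of a clone was shared by both lines. A dye effect that differs between the lines therefore remains in all correlations made after this removal. Clones on one array share its RNA, labelling and hybridisation.

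**Figure D5:**
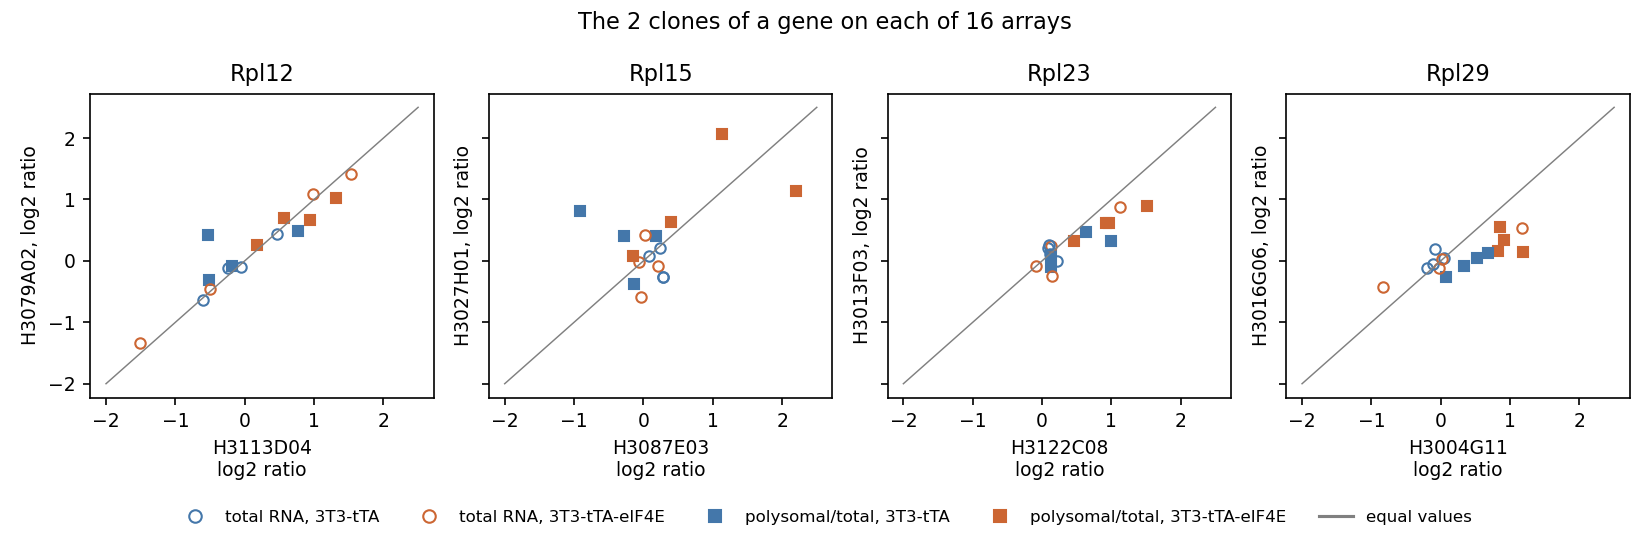
The plot of clone against clone shows, for each gene, the log2 ratio of one clone (horizontal axis) against the other (vertical axis) on 16 arrays, with open circles for total RNA, filled squares for polysomal/total ratios, blue for 3T3-tTA, orange for 3T3-tTA-eIF4E and a grey line of equal values. Rpl12 lies along the line in total RNA, with gaps of at most 0.17, the polysomal squares of Rpl29 lie below it, and Rpl15 scatters widely.

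In level, Rpl29 H3004G11 exceeded H3016G06 on 8 of 8 polysomal arrays, by 0.55 ± 0.23 (SD), and Rpl23 H3122C08 exceeded H3013F03 on 8 of 8, by 0.32 ± 0.23. Both comparisons gave p = 0.125 by the exact two-sided sign-flip permutation test on 4 extraction means, which is the smallest p this design allows, so none of the 8 comparisons of this kind could pass 0.05. For Rpl12 the gap was -0.08 ± 0.41 (exact permutation p = 1), and H3113D04 was the higher clone on 3 of 8 arrays. Without P11 this gap was 0.074, and without P9 it was -0.17. For Rpl15 it was -0.34 ± 0.82 (exact permutation p = 0.5), with the higher value in H3087E03 on 2 of 8 arrays, and it moved to -0.14 without P3 or P9 and to -0.54 without P1 or P11. In total RNA the gaps were -0.03 ± 0.10 for Rpl12, 0.19 ± 0.35 for Rpl15, 0.06 ± 0.21 for Rpl23 and -0.01 ± 0.31 for Rpl29, with exact permutation p of 0.375 to 1. With 1 total RNA array left out they ranged from -0.051 to -0.0049 for Rpl12 (without T13 and T11), 0.12 to 0.28 for Rpl15 (without T15 and T13), 0.014 to 0.10 for Rpl23 (without T13 and T9) and -0.089 to 0.049 for Rpl29 (without T13 and T15). The clone with the brighter Cy3 spots had the lower mean polysomal/total ratio in Rpl23 and Rpl29, and the higher one in Rpl12 and Rpl15. The part of spot brightness was not tested.

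For comparison, 11 other genes of the list had at least 2 clones with a row, which gives 17 pairs, those of a gene with more than 2 clones sharing clones. In 4 of these pairs, from A530086E13Rik, Morc and Tomm20, the clones had polysomal/total differences of opposite sign, as against 0 of 4 pairs in the 4 ribosomal protein genes. Since every clone on the list was chosen on this difference, the counts describe the list only. The median size of the polysomal gap between clones was 0.33 in the 4 genes and 0.21 in the 17 pairs (0.01 to 0.87), and the median correlation after removal of condition means and dye terms was 0.83 and 0.30 (-0.53 to 0.97). Rps24, encoding a protein of the small subunit, had a closely matched pair with a correlation of 0.94 and a polysomal gap of 0.05. For Rps26, also of the small subunit, these were 0.55 and 0.42.

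Among 567 other rows with a gene name in the study's lists, those most like the mean of both clones, by correlation across 16 arrays after removal of condition means and dye terms, included other ribosomal protein clones for 3 of the genes. For Rpl12 they were Rpl13 (0.92), Rps26 H3035A02 (0.90) and 1100001I22Rik (0.90). For Rpl29 they were Rpl12 H3113D04 (0.88), Rps24 H3145D12 (0.87) and Rps26 H3035A02 (0.84). For Rpl23 they were Rps3a (0.93) and 2 clones of Eif4e, H3089A10 (0.91) and H3012A09 (0.90). The Eif4e clones differed between the lines in total RNA by 2.69 and 2.91, and this difference is removed before the correlation. For Rpl15 they were Ankrd17 (0.78), 4932702G04Rik (0.73) and 1700048E23Rik (0.70), none of them a ribosomal protein gene. No p-values are given since arrays of one extraction are not independent.

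The list holds 18 clones of 16 other cytosolic ribosomal protein genes with a row. Their polysomal/total differences between the lines had a median of 0.56, beside 0.53 in the 8 clones, and ranged from -0.59 for Rpl3, the one clone that was lower in 3T3-tTA-eIF4E, to 1.18 for Rpl27. In the mean polysomal/total ratio over both lines 6 of the 18 were called higher by limma and 0 lower, beside 171 higher and 153 lower (2.13%) of all rows. Their median was 0.69, beside 0.04 over all rows. The highest was Rpl13 (1.06 ± 0.11 SE, adjusted p = 0.066 by limma) and the lowest Rpl7a (-0.20 ± 0.15, adjusted p = 0.618 by limma). In total RNA 0 of 18 were called, and the median difference between the lines was 0.02, with 13 of 18 above 0, beside 46.8% of all rows.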

How the data were processed

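RNA of both NIH 3T3 lines was hybridised to 16 Mouse 15K3 two-colour cDNA arrays, on which every clone is spotted in duplicate. The authors scanned them with a GenePix scanner and normalized each array with limma (version not given in the sources used here), using a lowess curve not divided by print tip and no background subtraction. They deposited log2 ratios of Cy3 over Cy5, 1 column for each duplicate spot (32 in all). For 4 polysomal arrays the deposited files also hold unnormalized intensity values of foreground and background. Scale and direction were checked on ratios recomputed from them. Rows were matched to spots on 3 of these arrays (distance under 0.2, 1146 to 1525 of 1525 rows looked at), and on the array left out of the match the recomputed and deposited values then correlated at 0.972 to 0.995, with slopes of 0.975 to 1.02. For the other 12 arrays the same direction was assumed.

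The row names of the deposited table did not belong to the values. A clone's row was found where the polysomal difference between the lines equalled, to 6 digits, the value listed for the clone by the study, which 542 of 554 listed clones had in exactly 1 row. The spots of the clones on the scanned arrays were found as those with the nearest recomputed ratios. For Rpl15 H3027H01 this match was the least close (distance 0.21, next spot 0.51). The members and lists were chosen with earlier results of these data known. The 2 listed clones of each gene are named, besides the 3 most similar named clones and the extremes of each list.

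Duplicate spots were averaged, and values were turned by the dye in the labels. The arrays of an extraction were averaged, so that dye effects cancel, and the 2 extraction means of each condition entered limma (version 3.58.1, R version 4.3.3). All 4 possible assignments of arrays to extractions were fitted and the largest p and SE were kept. p-values were adjusted by Benjamini-Hochberg over 15247 rows, and calls needed an adjusted p under 0.1 and a 1.3-fold change. Extractions are not stated to come from separate cultures, and p-values then measure only the spread between them. The number of arrays limits the precision. On simulated data, with normal noise drawn independently for each array, the fit recovered the mean size of known changes. It called fewer of the small than of the large ones. Arrays of one extraction need not vary independently, so the simulation does not show how many changes were missed here. Clones were compared by an exact sign-flip test. Alternatives were arrays as replicates, centring, scaling, single spots, single dyes, each array left out, SAM (with a symmetric cutoff) and the reference RNA. The authors' fold changes and q-values were not used beyond finding rows and names.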

Additional observations from a re-analysis of the deposited data

How the results depend on the processing

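The polysomal/total difference between the lines kept its direction in all 8 clones under every alternative run, with a median over the clones of 0.39 to 0.63 (0.53 as reported). The clones were chosen on this difference from the same arrays, so that a kept direction was largely set by the choice. The difference fell to 0.17 for Rpl23 H3122C08 with the uninduced reference, and to 0.13 for Rpl15 H3027H01 with Cy3 arrays only. Leaving out 1 array moved it by over 1.5 times only for Rpl15 H3027H01 (0.66 as reported, 0.37 without P3, 1.01 without P9). The mean polysomal/total ratio over both lines stayed above 0 in all clones except Rpl15 H3087E03, which was -0.20 with Cy3 arrays only, 0.13 without P1 and 0.16 without P11. With Cy5 arrays only it was 0.011 for Rpl12 H3113D04 (0.32 as reported) and 0.14 for Rpl12 H3079A02 (0.40 as reported). Of the 8 clones, none was called in this mean as reported, but 5 were with arrays as replicates, 4 with Cy3 and 0 with Cy5 arrays only, 2 after scaling, and 1 each without P1, P13 or P15. The cause of the changes below was not tested, apart from thresholds, which act by construction.

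Counts of rows called in the total RNA difference (0 as reported) were 3 with arrays as replicates, 2 with the second duplicate spot only, 4 with Cy5 arrays only, and 56, 52, 38 and 24 with SAM in its 4 pairings. For the change in 3T3-tTA-eIF4E (2 as reported) they were 7 with arrays as replicates, 0 after centring, with Cy3 arrays only and at the stricter adjusted p, 4 after scaling, 5 with the second duplicate spot and 1060 with Cy5 arrays only, and for 3T3-tTA (0 as reported) 1 with arrays as replicates. For the mean polysomal/total ratio (324 as reported) they were 2092 with arrays as replicates, 866 after scaling, 187 with the second duplicate spot, 2910 with Cy3 and 60 with Cy5 arrays only, and 54 at the stricter adjusted p. When 1 array was left out, the counts were 0 to 4 for the total RNA difference (4 without T13), 0 to 5 for the change in 3T3-tTA-eIF4E (5 without T11, 4 without T13, 0 without T1, T7, T9 or T15) and 64 to 715 for the mean polysomal/total ratio (64 without P9, 76 without P11, 147 without P7, 214 without P3, 521 without P13 and 715 without P15). None of the 8 clones was called in the total RNA difference under any of these.

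The total RNA difference of single clones turned in direction with Cy5 arrays only for Rpl12 H3113D04 (-0.58), Rpl12 H3079A02 (-0.52), Rpl23 H3122C08 (-0.13), Rpl23 H3013F03 (-0.23) and Rpl29 H3004G11 (-0.31), and with Cy3 arrays only for Rpl15 H3027H01 (0.20) and Rpl29 H3016G06 (0.24). It also turned after centring (0.0029) and with the second duplicate spot (0.064) for Rpl15 H3027H01, after scaling for Rpl23 H3013F03 (-0.087), and with the second duplicate spot for Rpl29 H3016G06 (0.025). With 1 array left out it ranged from -0.10 to 0.65 for Rpl12 H3113D04, -0.051 to 0.68 for Rpl12 H3079A02, -0.16 to 0.15 for Rpl15 H3027H01, -0.076 to 0.34 for Rpl23 H3122C08, -0.15 to 0.16 for Rpl23 H3013F03, -0.18 to 0.46 for Rpl29 H3004G11 and -0.20 to 0.15 for Rpl29 H3016G06.

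Comparisons of 2 clones at the smallest possible p (2 as reported) were 1 with the first duplicate spot and 4 with Cy5 arrays only. The total RNA gap turned with Cy3 arrays only for Rpl12 (0.024), Rpl23 (-0.042) and Rpl29 (0.16), and with the second duplicate spot for Rpl29 (0.0078). With 1 array left out it was -0.089 to 0.049 for Rpl29, and the polysomal gap was -0.17 to 0.074 for Rpl12 (0.074 without P11, -0.17 without P9, -0.12 without P13, -0.045 without P3) and -0.54 to -0.14 for Rpl15. SAM was run as an analysis stratified by dye, once for each of the 4 same-dye pairings. Beyond this, no paired analysis was possible by replicate number, because the sample numbers of the lines compared do not overlap and the extraction of an array is not given.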
